A study of Caenorhabditis elegans with 2 samples.

Results

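Genes of 3 families of detoxification enzymes in Caenorhabditis elegans, the cytochrome P450 (cyp), UDP-glycosyltransferase (ugt) and glutathione S-transferase (gst) genes, were examined for regions bound by the zinc-finger protein ZTF-7. The members were all protein-coding genes of the Ensembl annotation of build WBcel235 (ce11) whose name starts with cyp-, ugt- or gst-. They numbered 185 of 19985 protein-coding genes, namely 74 cyp, 67 ugt and 44 gst genes. Each gene was scored by the strongest region whose summit, the point of highest signal, lay within 1000 bp of the gene's annotated 5' end. The rule goes by name alone, although the families were picked for study with earlier results of these data known.

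The regions came from chromatin immunoprecipitation and sequencing (ChIP-seq) of ZTF-7 tagged with eGFP. Whole animals at the L4 larval stage, labelled as males and females pooled, gave 2 biological replicates of a single group. The strain, OP332, has the genotype unc-119(tm4063) III; wgIs332, so both replicates carried the unc-119 mutation and the integrated transgene. Whole larvae mix all tissues, and no control sample was analysed here, so whether a peak is specific to ZTF-7 was not tested. A region list was deposited for each replicate and for both together (30000 regions each), as was a list of 1311 peaks past a reproducibility threshold (IDR, the irreproducible discovery rate). Each member's IDR peak held the same rank in the list of both replicates, the pooled list. Gene counts by the 1311 strongest pooled regions equalled those by IDR peaks, so these lists are not separate evidence. An IDR peak could also lack a region in 1 replicate, as at ugt-22. The depth of the libraries is unknown from these lists. A signal value is the number the peak caller gave to a region and can be compared only within its list, and rank 1 is the strongest region of a list. The ztf-7 gene itself had an IDR peak 350 bp upstream (rank 355), whose nearest 5' end was that of the non-coding RNA gene F46B6.15, 24 bp away. Whether the transgene adds reads at ztf-7 was not tested. No region of any list lay within 1000 bp of the 5' end of unc-119.

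Cytochrome P450s are heme enzymes that oxidise small lipophilic molecules, both foreign compounds and endogenous sterols and fatty acids. UDP-glycosyltransferases then attach a sugar to such molecules, and glutathione S-transferases attach glutathione, which makes them more soluble and easier to export. In C. elegans many genes of the 3 families are known for their activity in the intestine and for induction by foreign compounds or oxidative stress.

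An IDR summit lay by 13 of the 185 genes (7.03%), against 5.61% of all protein-coding genes. The members' share was thus near that of coding genes as a whole. The families were ordered ugt, gst and cyp, with 7 of 67 ugt genes (10.4%, exact Clopper-Pearson 95% interval 4.30 to 20.3%), 3 of 44 gst genes (6.82%, 1.43 to 18.7%) and 3 of 74 cyp genes (4.05%, 0.844 to 11.4%). With a 2000 bp window the order changed, to 9 gst genes (20.5%), 7 ugt genes (10.4%) and 4 cyp genes (5.41%), beside 7.93% of other coding genes. Of the gst genes gained, gst-26 and gst-28 lay by the peak of gst-27, and gst-6 and gst-8 by that of gst-7. The others, gst-17 and gst-18, shared a peak. The intervals at 1000 bp overlap each other, and those of ugt, gst and cyp all contain the share of other coding genes, 5.6%. They cover counting error over genes only, and neighbouring genes that share a peak are not independent. A region of the pooled list, which reaches down to a signal value of 8.53, lay by 82 members (44.3%, against 40.2% of all protein-coding genes). It lay by 34 ugt genes (50.7%), 21 gst genes (47.7%) and 27 cyp genes (36.5%).

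**Figure D1:**
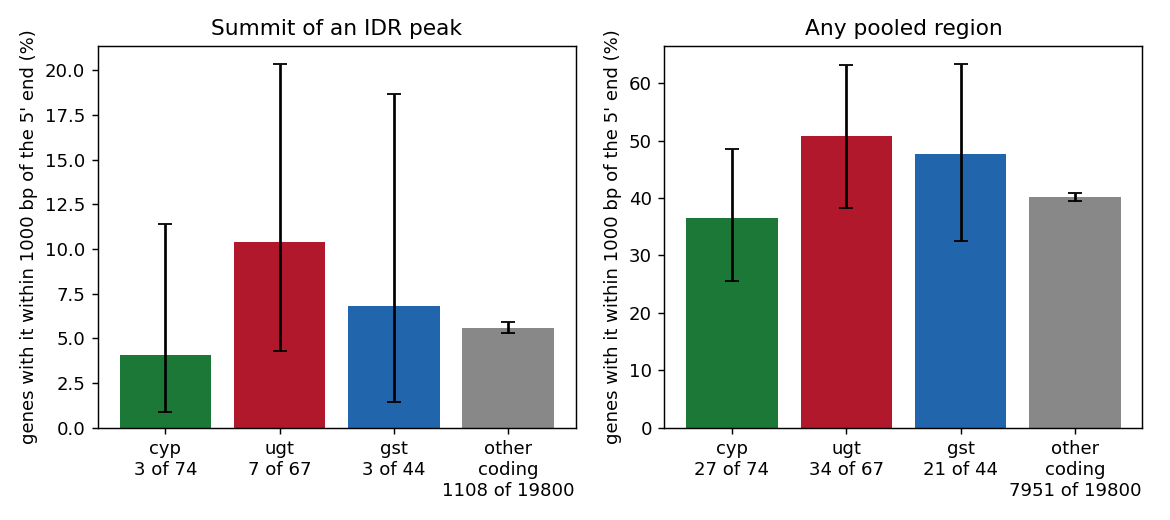
Share of genes with the summit of an IDR peak (left) or of any pooled region (right) within 1000 bp of the 5' end, for the 3 families and all other protein-coding genes. Bars give the percentage and error bars the exact 95% interval; the bar of ugt genes is the tallest in both panels (10.4% and 50.7%), and the family intervals overlap.

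At 1000 bp the ugt genes stood above the others wherever the pooled list was ended. Among the 2622 strongest pooled regions were those of 14 ugt genes (20.9%), 6 gst genes (13.6%) and 4 cyp genes (5.41%), beside 9.91% of other coding genes. At 5244 regions the shares were 31.3%, 20.5% and 13.5%, beside 15.9%. At 10488 regions they were 40.3%, 27.3% and 23%, beside 23.8%. The cyp genes thus stood below the other coding genes at each step and the ugt and gst genes above. The steps are nested, so they are not separate evidence, and no test of the family difference was made.

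**Figure D2:**
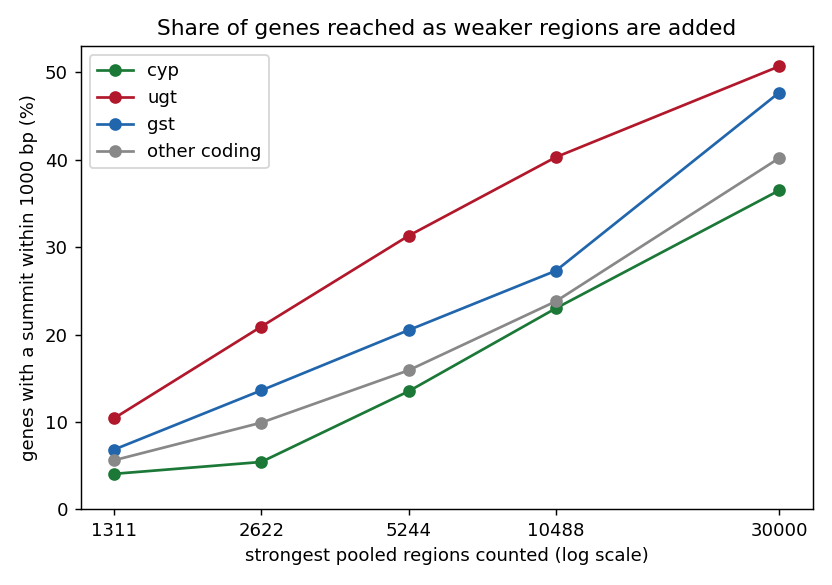
Percentage of genes that have a summit no farther than 1000 bp from the 5' end (vertical axis) when the 1311, 2622, 5244, 10488 or all 30000 strongest pooled regions are counted (horizontal axis, log scale). The ugt line lies above the gst line, and the cyp line below that of other coding genes, at all 5 steps.

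The 13 genes were reached by 12 separate peaks, since cyp-33C6 and cyp-33C7 shared a peak. Summits lay upstream of the 5' end for 11 of the 13 and within 250 bp of it for 7. The peaks had a median signal value of 69.2 against 66.0 for the 1289 nuclear IDR peaks, and 9 of the 12 summits were intergenic (75.0%, against 68.0% of nuclear IDR peaks).

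Among the transferases of sugars, ugt-13 had the strongest peak. It lay on chromosome V from 4908659 to 4908877 with its summit 116 bp upstream of the gene, in intergenic sequence, and no other annotated 5' end lay within 1000 bp. Its pooled signal value was 266.9 (rank 37), with 100.8 in replicate 1 (rank 39) and 159.9 in replicate 2 (rank 41). The ugt-50 peak followed, on chromosome X from 12691376 to 12691633, with its summit 39 bp upstream of the gene and again no other 5' end within 1000 bp. Its signal value was 198.6 in the pooled list (rank 63), 87.8 in replicate 1 (rank 52) and 117.4 in replicate 2 (rank 71). Both peaks held nearly the same place in each replicate. No other member had a rank better than 182 in either replicate.

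The other 5 ugt peaks were weaker, with pooled signal values from 58.0 to 95.3. Both ugt-17 and ugt-2 had their summits inside the gene. That of ugt-17 lay in a coding exon 977 bp downstream of the 5' end (pooled rank 256, rank 435 in replicate 1 and 285 in replicate 2), close to the edge of the window. That of ugt-2 lay in an intron 688 bp downstream (pooled rank 633, and 1590 and 472 in the replicates). The summits of ugt-12 and ugt-21 were intergenic, 77 and 48 bp upstream. The ugt-12 peak ranked 551 in the pooled list, 1021 in replicate 1 and 517 in replicate 2, and the ugt-21 peak 556, 1194 and 499. The coding gene T19H12.2 also had its 5' end 723 bp from the ugt-12 summit. The ugt-22 peak, 105 bp upstream of the gene on chromosome IV, rested on replicate 2. It ranked 891 in the pooled list and 512 in replicate 2, and replicate 1 had no region overlapping it and none within 1000 bp of the gene's 5' end. Its summit also lay within 1000 bp of the 5' ends of 6 genes of piRNAs, the small RNAs of the germline.

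The peaks of ugt-50, ugt-21 and ugt-17 held a stretch of identical bases within 50 bp of the summit. The run overlaps the summit in ugt-21 and ugt-17 and lies downstream of it in ugt-50. The 101 bp centred on each summit is given here on the strand of the gene, shortened where an annotated exon begins beyond the summit. The 11 bases common to all 3 are in capitals, on the opposite strand in ugt-17. The sequence is that of the RefSeq copy of WBcel235.
ugt-50 (chrX:12691484-12691572, plus strand): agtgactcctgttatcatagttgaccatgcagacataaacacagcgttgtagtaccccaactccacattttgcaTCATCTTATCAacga
ugt-21 (chrIV:9500213-9500310, plus strand): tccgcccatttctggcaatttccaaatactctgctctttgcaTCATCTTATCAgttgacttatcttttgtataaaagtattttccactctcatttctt
ugt-17 (chrV:10103937-10104037, minus strand): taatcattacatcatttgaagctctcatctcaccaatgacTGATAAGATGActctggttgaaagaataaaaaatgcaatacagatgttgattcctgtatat

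The windows of ugt-50 and ugt-21 shared a longer run of 17 bases, tttgcatcatcttatca, which ended 5 bp before the 5' end of ugt-50 and 46 bp before that of ugt-21. It was the longest run shared by any pair of the 12 windows and occurred at 2 places in the genome, these 2. The 11-base run tcatcttatca occurred at 136 places in the genome on either strand. Of the 1289 nuclear IDR windows of the same length 3 held it, those of these 3 genes, and of the 28688 nuclear pooled regions outside the IDR list 6 did. It lay within 1000 bp of the 5' end of 59 protein-coding genes, of which 5 had an IDR peak and 29 a pooled region. Over all protein-coding genes the shares were 5.61% and 40.2%. Of the 5 with an IDR peak, 3 were ugt-50, ugt-21 and ugt-17, from whose windows the run was taken. These 3 raise both counts by construction. Of the members, 7 were among those 59, and besides the 3 named they were ugt-64, ugt-33, ugt-66 and gst-21. The ugt-64 gene had a pooled region at rank 1716, while ugt-33, ugt-66 and gst-21 had no region in any list. These runs were looked for after the peaks were known, so their counts are a description with no test.

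The run contains ttatca, the reverse complement of TGATAA, a site read by GATA factors such as ELT-2 of the intestine. Counted on both strands in the 101 bp window, TGATAA was in 4 of the 12 member peaks (33.3%), against 12.7% of nuclear IDR peaks and 14.1% of nuclear pooled regions outside the IDR list. The 4 were ugt-50, ugt-17, ugt-21 and ugt-2, which is 4 of the 7 ugt peaks and 0 of the other 5. This split by family was not planned and was not tested. Of the 4, 3 hold the 11-base run above. GTCAT, part of the site of the oxidative stress regulator SKN-1, was in 4 of 12 (33.3%), against 19.5% of nuclear IDR peaks and 13.6% of the other pooled regions. Those were the peaks of ugt-13, ugt-17, ugt-12 and gst-7. GCGTG, the core of the site of the aryl hydrocarbon receptor AHR-1, was in 2 of 12 (16.7%), those of gst-27 and cyp-43A1, against 20.6% and 4.93%. GTAAACA, the site of the insulin pathway factor DAF-16, was in none of the 12, against 2.09% and 1.66%. The member peaks were poorer in G and C than most, with a median of 34.2% of bases in the window (24.8 to 55.4%) against 45.5% for nuclear IDR peaks. In 10 of the 12 the value was below that median. Base composition alone changes how often such short strings occur, and its part in these shares was not tested.

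Of the glutathione S-transferase genes, gst-27, gst-42 and gst-7 had IDR peaks. The gst-27 summit lay 349 bp upstream of that gene on chromosome II, but 52 bp from the 5' end of the snoRNA gene Y53F4B.48 and 189 bp from that of the non-coding RNA gene Y53F4B.58. It ranked 405 in the pooled list with a signal value of 81.6, 182 in replicate 1 (52.1) and 1537 in replicate 2 (30.4), so it was among the 1311 strongest regions of replicate 1 but not of replicate 2. The gst-42 gene, related to the enzyme maleylacetoacetate isomerase of tyrosine breakdown, had its summit 36 bp upstream on chromosome X. On the other side, 179 bp from the summit, lay the 5' end of the coding gene D1053.2, which points away from gst-42. The gst-42 peak had a signal value of 58.7 in the pooled list (rank 872), 30.2 in replicate 1 (rank 744) and 29.3 in replicate 2 (rank 1683). The gst-7 summit lay 171 bp upstream of the gene on chromosome II, with no other 5' end within 1000 bp. Its pooled signal value of 50.1 (rank 1256) was near the lowest of the IDR list, 49.2, and it ranked 1443 in replicate 1 and 882 in replicate 2.

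The cytochrome P450 genes with IDR peaks were cyp-43A1, cyp-33C6 and cyp-33C7. The cyp-43A1 summit lay 844 bp upstream on chromosome X, inside a tRNA gene, 26 bp from its 5' end, and inside the overlapping non-coding gene E03E2.2. It ranked 845 in the pooled list with a signal value of 59.6, 889 in replicate 2 (37.2) and 5897 in replicate 1 (9.56). Within this peak 82.7% of the 36-base strings occur at a single place in the genome, the lowest of the 12, so part of its reads could come from a copy elsewhere. The share was 98.6% at the ugt-12 peak and 100% at the other 10. The peak of cyp-33C6 and cyp-33C7 lay between these genes on chromosome V, which point away from each other, 252 bp upstream of cyp-33C7 and 878 bp upstream of cyp-33C6. Its signal value was 51.0 in the pooled list (rank 1200), 17.1 in replicate 1 (rank 2326) and 33.8 in replicate 2 (rank 1156). None of the cyp peaks was among the 1311 strongest regions of replicate 1. A tRNA or snoRNA gene had its 5' end within 1000 bp of the summit in 2 of the 12 member peaks (16.7%), those of gst-27 and cyp-43A1, against 94 of the 826 nuclear IDR peaks by a coding 5' end (11.4%).

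The summit windows of the strongest ugt peak and of gst and cyp peaks are shown for comparison with those above, cut and oriented in the same way. Capitals mark matches to the 4 strings named above on either strand.
ugt-13 (chrV:4908718-4908818, plus strand): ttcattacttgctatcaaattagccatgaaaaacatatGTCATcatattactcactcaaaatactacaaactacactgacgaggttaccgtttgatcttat
gst-42 (chrX:11727937-11728022, minus strand): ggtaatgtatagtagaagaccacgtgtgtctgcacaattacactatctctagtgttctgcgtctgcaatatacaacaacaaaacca
gst-7 (chrII:4881841-4881941, plus strand): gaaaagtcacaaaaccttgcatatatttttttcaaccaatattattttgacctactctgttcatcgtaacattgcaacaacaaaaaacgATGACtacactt
cyp-33C7 (chrV:2250238-2250338, plus strand): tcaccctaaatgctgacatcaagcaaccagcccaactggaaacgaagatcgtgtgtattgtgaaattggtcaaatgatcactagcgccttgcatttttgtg

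Only GTCAT was found in these 4 windows, at ugt-13 and, read on the other strand, at gst-7. The cyp-33C7 and gst-42 windows held none of the 4 strings.

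The replicates were compared gene by gene through the 1311 strongest regions of each, as many as there are IDR peaks. In replicate 1 these reached 8 members (4.32%, against 5.13% of all protein-coding genes), namely 6 ugt, 2 gst and 0 cyp genes. In replicate 2 they reached 12 members (6.49%, against 5.42%), namely 7 ugt, 2 gst and 3 cyp genes. The 5 members reached in both replicates (2.70%, against 2.88%) were ugt-13, ugt-50, ugt-17, ugt-12 and ugt-21. That is 5 of 67 ugt genes (7.46%, exact 95% interval 2.47 to 16.6%), 0 of 74 cyp genes (interval up to 4.86%) and 0 of 44 gst genes (interval up to 8.04%), and these intervals overlap. Of the 13 genes with IDR peaks, 9 ranked better in replicate 2 and 4 in replicate 1. The 9 include cyp-33C6 and cyp-33C7, which share a peak. Over all 185 members, 70 had a region in both full replicate lists, 41 in that of replicate 1 alone, 17 in that of replicate 2 alone and 57 in neither. The 57 (30.8%) compare with 42.6% of other coding genes. The other counts of this split, and those of the better replicate, were not made over all coding genes. Whether they are particular to the members was not tested.

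**Figure D3:**
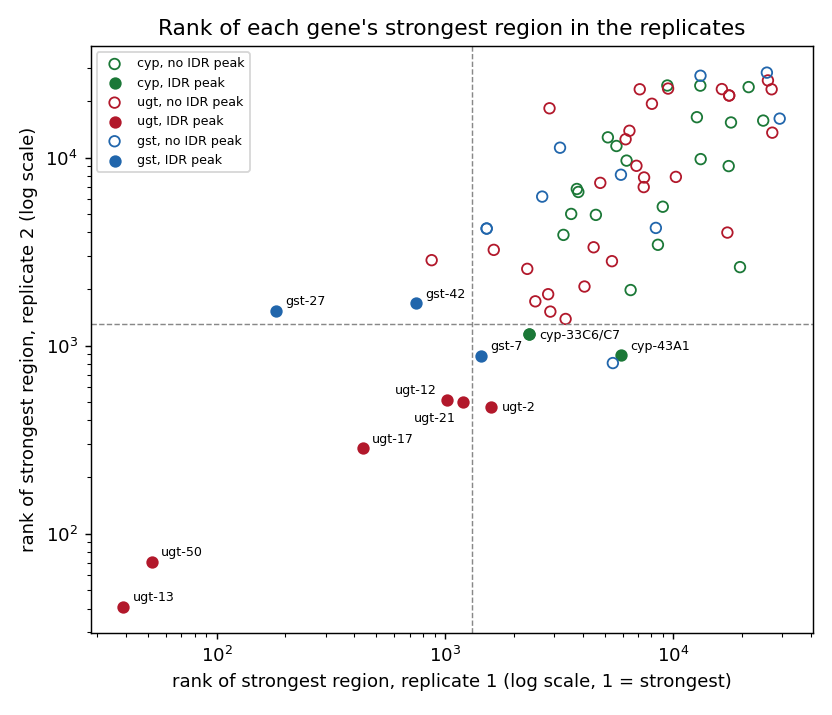
Rank of the strongest region by each member's 5' end in replicate 1 (horizontal) and replicate 2 (vertical), both on log scales, for the 70 members with a region in both lists. Filled points have an IDR peak and dashed lines mark rank 1311; ugt-13 and ugt-50 stand apart at ranks of 71 or better in both replicates. The 3 gst and the cyp peaks each fall past the line in at least 1 replicate, as does ugt-2 (rank 1590 in replicate 1). The ugt-22 gene has no region in replicate 1 and is not plotted.

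Several members lay just below the threshold. The nearest was ugt-65, whose pooled region, 14 bp upstream, had a signal value of 49.1 (rank 1317), against 50.1 for gst-7, the weakest member inside. It ranked 3370 in replicate 1 and 1386 in replicate 2. The ugt-5 region followed at 47.5 (rank 1417) and that of ugt-41 at 46.4 (rank 1484). The gst-17 and gst-18 genes shared a region of 46.9 (rank 1445), and gst-9 had 43.3 (rank 1697), with rank 808 in replicate 2 but 5426 in replicate 1. The ugt-49 region was the opposite case, with rank 873 in replicate 1 and 2847 in replicate 2. The strongest cyp regions outside the IDR list were weaker, those of cyp-14A4 (35.8, rank 2487), cyp-33E1 (34.9, rank 2633) and cyp-34A9 (33.3, rank 2871). At the other threshold, the 1000 bp window, ugt-17 was the last member inside at 977 bp. The first outside were gst-18 at 1463 bp from an IDR summit, then gst-28 at 1497 bp and gst-26 at 1527 bp, the last 2 by the peak of gst-27.

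Pooled regions, where members had them, lay close to the 5' end. The median distance was 169 bp for the 34 ugt genes with a region, 213 bp for the 27 cyp genes and 224 bp for the 21 gst genes, against 342 bp for the 7951 other coding genes with a region. The summit was upstream in 63 of the 82 (76.8%, against 71.7%) and within 250 bp in 46 (56.1%, against 37.3%). Of the 82 members, 8 shared a region with another member, in 4 pairs: cyp-33C6 with cyp-33C7, gst-17 with gst-18, ugt-9 with ugt-11 and gst-2 with gst-4. The last pair's region was weak (signal value 12.1, rank 18889), and it is that of gst-4, a gene widely used as a reporter of oxidative stress.

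**Figure D4:**
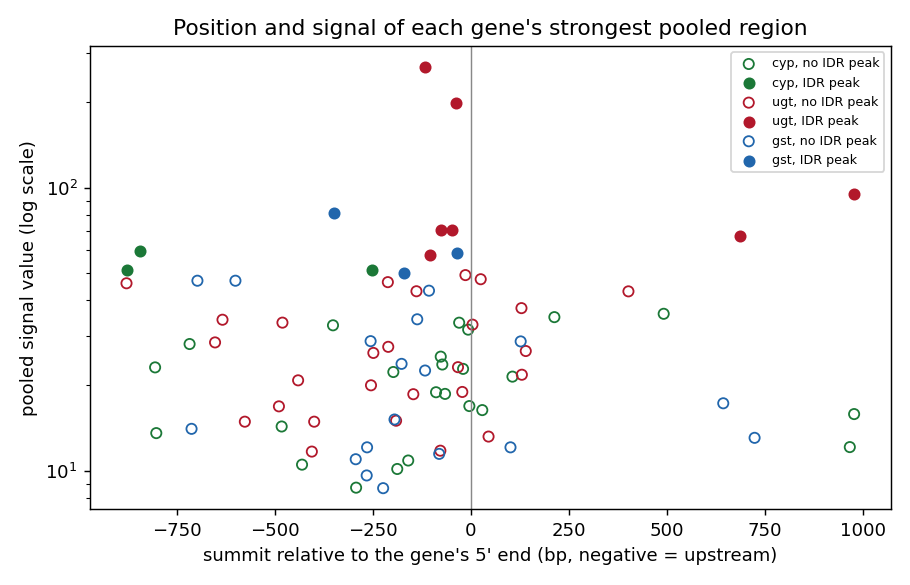
Signal value in the pooled list (vertical, log scale) against the position of the summit relative to the gene's 5' end (horizontal, bp, negative upstream) for the 82 members with a pooled region. Filled points have an IDR peak; 11 of the 13 lie upstream, and ugt-2 and ugt-17 lie 688 and 977 bp downstream.

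A pooled region lay by 36.5% of cyp genes and 40.2% of all protein-coding genes, and the cyp subfamilies were counted beside these shares. Of 25 subfamilies, 15 had at least 1 gene with a pooled region. The 10 cyp-35 genes, a group known for induction by foreign compounds, had 0 pooled regions. Their replicate regions were weak, with 5 genes in the list of replicate 1 (best rank 8636) and 1 in that of replicate 2. The cyp-33C subfamily, near the share of all cyp genes, had 4 of 11 genes with a pooled region, 2 of them by the IDR peak above, and cyp-13A had 3 of 11 with 0 IDR peaks. Of the cyp-14A genes 4 of 5, and of the cyp-33E genes 3 of 3, had a pooled region, with 0 IDR peaks. These subfamilies are small, cyp genes of a subfamily often lie side by side, and no test was made.

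Position in the genome differed between the families. Chromosome V held 92 of the 185 members, of which 6 had an IDR peak (6.52%, against 3.88% of all coding genes on V). The 42 ugt genes there had 4 IDR peaks and 18 pooled regions (42.9%), the 41 cyp genes had 2 genes with an IDR peak and 11 with a pooled region (26.8%), and the 9 gst genes had none of either. Other coding genes on V had a pooled region in 30.6%. On X, 3 of 14 members had an IDR peak (21.4%, against 6.19% of all coding genes on X), 1 of each family. A pooled region lay by 10 of the 14 (71.4%, where other coding genes stood at 44.6%). Chromosome II held 25 of the 44 gst genes, 2 of them with an IDR peak (8%) and 15 with a pooled region (60.0%), where other coding genes stood at 4.4% and 33.6%. On III the members stood lower, with 0 of 10 by an IDR peak and 3 by a pooled region (30.0%), where other coding genes stood at 8.82% and 53.7%. On I, 0 of 8 members had an IDR peak, where other coding genes stood at 6.17%, and 5 had a pooled region (62.5%, where others stood at 45.5%). On IV, 2 of 23 members had an IDR peak (8.7%, where others stood at 5.62%). A pooled region lay by 15 of the 23 (65.2%, where others stood at 41.9%).

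Other genes of the same chemistry were counted by the same rule, in lists also chosen with earlier results known, and their shares are read against the 5.61% (IDR peak) and 40.2% (pooled region) of all protein-coding genes. IDR peaks lay by 3 of 48 other oxidoreductases (6.25%, near the share of all coding genes), a list of flavin monooxygenases, short-chain dehydrogenases and aldehyde dehydrogenases, namely alh-9, dhs-8 and dhs-21. A pooled region lay by 31 of the 48 (64.6%). For dhs-8 the nearest 5' end was that of the non-coding gene K10H10.11. Of 6 other transferases gsto-1, an omega class glutathione transferase, had a peak 287 bp upstream at rank 134, and 4 had a pooled region. The 3 genes of glutathione supply, gcs-1, gss-1 and gsr-1, had 0 IDR peaks, and 2 of them had a pooled region. The emb-8 gene, which encodes the reductase that passes electrons to cytochrome P450s, had a summit 914 bp upstream at rank 1261, with rank 3751 in replicate 1 and 853 in replicate 2. Among 30 ABC transporters, which carry conjugates and other substrates across membranes, mrp-5 and haf-3 had peaks (6.67% of the list, ranks 20 and 248), in both cases with another gene's 5' end nearer to the summit, F45B8.9 and F57A10.2. A pooled region lay by 11 of the 30 (36.7%).

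Of 13 regulators of these pathways 4 had an IDR peak (30.8%, against 5.61% of all protein-coding genes). A pooled region lay by 11 of the 13 (84.6%, against 40.2%). The list was picked by hand with earlier results known, so its share says nothing about regulators in general. Those with no IDR peak were skn-1, mdt-15, ahr-1, aha-1, nhr-86, daf-12, daf-16, hizr-1 and elt-2. The wdr-23 gene, whose product restrains SKN-1, had its summit 92 bp upstream (rank 419, and 346 and 766 in the replicates). The cebp-1 gene, encoding a bZIP transcription factor, had it 677 bp upstream (rank 348, and 115 and 1761). The nuclear receptor genes nhr-48 and nhr-8 had weaker peaks, at ranks 1183 and 1291. The nhr-8 gene, known for a role in resistance to toxins, ranked 4439 in replicate 1 and 615 in replicate 2. For all 4 the regulator's own 5' end was the nearest to the summit.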

How the data were processed

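ChIP-seq of eGFP-tagged ZTF-7 was available as region lists from 2 replicates, with DNA of 150 to 350 bp per the labels. The deposited lists give 1 signal value per region, as the peak caller wrote it, for each replicate and for both together. Per the deposited notes, the regions derive from the ChIP alignments and 1 further file, taken to be the control. Which aligner, caller and IDR cutoff were used is not given in the sources used here. Lists on build ce10 were not used, since the annotation is that of ce11 and no coordinates were converted. The depth per sample is unknown.

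Regions were ranked by signal. Genes and 5' ends came from Ensembl release 115 and sequence from RefSeq, both of WBcel235, with coordinates counted from 1. Shares have exact Clopper-Pearson 95% intervals. Named were all members with an IDR peak, the 3 strongest others of each family, members strong in 1 replicate only (ugt-49 and gst-9 were added after their values were seen, as were the members beyond the window's edge, the region shared by gst-4, and the cyp subfamilies), and genes of the other lists with an IDR peak. The names cyb-5.1 and cyb-5.2 matched no coding gene. The members and lists were chosen with earlier results of these data known. With 1 group, no test between conditions was made. The assignment of summits to genes was tested on simulated data. Alternatives were other windows, nearest 5' ends, all transcript starts, intervals in place of summits, stronger peaks, each replicate alone and support in both. Leaving out peaks by tRNA or snoRNA genes was chosen later, after seeing the data. Software was Python 3.11.15 with scipy 1.17.1, pandas 2.3.3, numpy 2.4.6 and, for figures, matplotlib 3.10.9.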

Additional observations from a re-analysis of the deposited data

How the results depend on the processing

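The 13 members with IDR peaks became 20 with a 2000 bp window and 7 in the upper 50% of IDR peaks by signal. With the 1311 strongest regions of a single replicate the count was 8 without replicate 2 and 12 without replicate 1, of which 7 and 11 were among the 13. The 3 cyp genes became 1 with a 500 bp window and 0 in the upper 50% of peaks, and ranged from 0 without replicate 2 to 3 without replicate 1. The 3 gst genes became 9 with the 2000 bp window (20.5%, above the 10.4% of ugt genes, so that the family order changed). Most of the gst genes gained lay by the peaks of gst-27 and gst-7, already counted, and the others shared a peak. In the upper 50% of peaks the gst genes numbered 1 (2.27%, below the 2.9% of other coding genes). Without peaks near tRNA or snoRNA genes they numbered 2 (4.55%, below the 5% of other coding genes). The 7 ugt genes numbered 5 to 7 under the 10 alternatives run, and their share was above that of other coding genes in all 10, which use largely the same peaks.

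The depth behind the lists is unknown, so a gene without a region is one where none was listed. The number of genes per family limits the precision of each share, and neighbouring genes are not independent. The cause of the differences between replicates was not tested.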
